A study of Drosophila melanogaster with 18 samples.

Results

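Editing by 4EHP-ADAR was compared gene by gene with editing by its cap-binding mutant, 4EHP W114A-ADAR, in *Drosophila melanogaster* larval fat body, a tissue that stores fat and secretes serum proteins. The members were all genes with at least 1 listed editing site in the table that holds both constructs. They numbered 9961 genes, with 91502 sites and 93909 pairs of a site with a gene, over 6 of the 18 samples of the series. The 3 4EHP-ADAR libraries came from dcg-Gal4/uas-4EHP-adar larvae and the 3 4EHP W114A-ADAR libraries from dcg-Gal4/uas-4EHPmutant-adar larvae, all male and late in the third instar. Both groups carried the *dcg-Gal4* driver, which is active in the fat body, and a transgene placed on the second chromosome by targeted insertion. All 6 libraries were polyA-selected RNA from dissected fat body. No source ties the numbers in the column names to labelled replicates, so the columns are called libraries 1 to 3 of each construct. Per the study's methods, an RNA-seq replicate was RNA pooled from the fat bodies of several male larvae, with triplicate samples per genotype, so p-values measure the spread between such pools.

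4EHP is a relative of the translation initiation factor eIF4E. It binds the methylated cap at the start of an mRNA but does not recruit eIF4G, the scaffold that brings in the ribosome, and it is best known as a repressor of particular mRNAs in the *Drosophila* embryo, where it acts with RNA-binding partners. The W114A change replaces a tryptophan of the cap-binding pocket. In TRIBE, the catalytic part of ADAR is fused to an RNA-binding protein, and adenosines on the RNA that the fusion meets are turned into inosine, which sequencing reads as G. The share of G among A and G reads at an adenosine therefore measures editing, although an A-to-G difference in the genome of the flies reads in the same way. Genomic DNA was not analysed here, and the part of such differences in the shares was not tested.

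For every gene 3 quantities were formed from the listed sites: the summed A and G reads (called coverage), the number of sites with at least 20 reads in all 6 libraries, and the gene-level G share, which is the G reads divided by the coverage. The sites had been chosen by the authors from these same libraries, and every site held at least 1 G read in the 4EHP-ADAR libraries. The direction of the G share is therefore built into the table. It is given below as a description, together with the fit across all genes.

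Coverage differed between the libraries of the constructs. The 4EHP-ADAR libraries held 12317197, 12197838 and 12257054 reads at the listed sites, each counted once, against 9764998, 7127061 and 7435300 in the 4EHP W114A-ADAR libraries. The median site had 93, 82 and 85 reads in the 4EHP-ADAR libraries, against 72, 52 and 54 in the 4EHP W114A-ADAR libraries. The groups did not overlap, with means of 86.7 ± 5.69 and 59.3 ± 11 reads (SD, n = 3 each; two-sided exact permutation test, p = 0.1, the smallest that 3 against 3 can give).

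The library-level G share was 1.6%, 1.65% and 1.8% in 4EHP-ADAR, against 1.05%, 1.09% and 1.13% in 4EHP W114A-ADAR. The lowest 4EHP-ADAR library lay above the highest 4EHP W114A-ADAR library. The means were 1.68% ± 0.103 and 1.09% ± 0.0431 (SD, n = 3 each), a difference of 0.596 percentage points (two-sided exact permutation test, p = 0.1). Wilson 95% intervals around the single libraries were at most 0.0076 points wide on each side and cover counting error only. The difference was 0.493 points after sites with a share of 95% or more were set aside, where the means were 1.05% ± 0.0896 and 0.555% ± 0.0145.

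**Figure D1:**
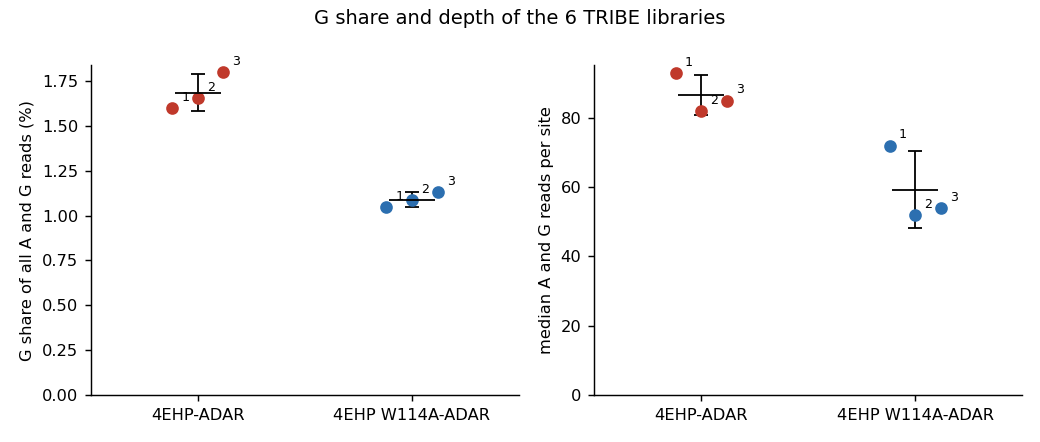
Library-level values for the 3 4EHP-ADAR and the 3 4EHP W114A-ADAR libraries; each point is a library, the bars are the mean and SD, and the vertical axes give the G share of A and G reads in percent and the median reads per site. The G share lies between 1.6% and 1.8% in 4EHP-ADAR and between 1.05% and 1.13% in 4EHP W114A-ADAR, without overlap.

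Most listed sites rested on very few G reads. Of the 91502 sites, 59666 (65.21%) had exactly 1 G read over the 3 4EHP-ADAR libraries and 22541 (24.63%) had 2, and 84033 (91.84%) had no G read in the 4EHP W114A-ADAR libraries. A G read was seen at 34463, 30659 and 40698 sites in the 4EHP-ADAR libraries, against 5707, 4456 and 4782 in the 4EHP W114A-ADAR libraries. G reads in all 3 4EHP-ADAR libraries were seen at 4724 sites. Of these, 4299 also had a G read in 4EHP W114A-ADAR, and 425, in 400 genes, had none there. For 1631 genes, every listed site had a single G read in the pooled 4EHP-ADAR libraries.

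A small number of positions carried most G reads of both constructs. Sites with a pooled share of at least 5% in 4EHP-ADAR numbered 4972, in 3054 genes, and held 79.25% of the 4EHP-ADAR G reads and 97.3% of the 4EHP W114A-ADAR G reads. Sites of at least 50% numbered 2041, in 1466 genes, and held 60.12% of the G reads of 4EHP-ADAR and 77.45% of those of 4EHP W114A-ADAR. At sites under 5%, the share averaged 0.358% ± 0.0725 in 4EHP-ADAR and 0.0294% ± 0.00578 in 4EHP W114A-ADAR (SD, n = 3 each).

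At the level of the gene, the pooled share was higher in 4EHP-ADAR for 9812 genes (98.5%), and 5970 genes (59.93%) had no G read in 4EHP W114A-ADAR. The median gene had a mean share of 0.6517% in 4EHP-ADAR and 0% in 4EHP W114A-ADAR. The 95th percentile was 14.52% in 4EHP-ADAR and 10.88% in 4EHP W114A-ADAR, so that high shares were found with both constructs. A mean 4EHP-ADAR share of at least 5% was reached by 1464 genes and one of at least 50% by 65 genes.

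The median gene had 6 listed sites, with quartiles of 3 and 12 and a maximum of 108, and 969 genes had 1 site. In all, 8332 genes had at least 1 site with 20 reads in all 6 libraries, and 1629 had none. With a minimum of 10 reads the number was 9216, and with 50 reads it was 6498. Overlapping genes shared positions: 2137 sites stood under more than 1 gene, and 294 genes had exactly the sites of another gene, so that the reads of such genes cannot be told apart. Sites were placed in the coding sequence in 65.84% of pairs, in the 3′ UTR in 14.72%, in the 5′ UTR in 13.08% and in an intron in 1.657%. The few intronic sites had the highest shares, at 6.01%, 7.02% and 7% in the 4EHP-ADAR libraries, against 4.27%, 5.51% and 6.3% in the 4EHP W114A-ADAR libraries, and these ranges overlapped.

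The number of sites went with the length of a gene more than with its level. Set against the CPM of control fat bodies from the same series, which are other libraries, 8.45% of genes under 1 CPM had a listed site, against 96.7% of genes at 20 to 100 CPM and 75% of genes above 2000 CPM. The median number of sites per exonic kilobase was 2.8 under 1 CPM, 4.65 at 20 to 100 CPM and 1.31 above 2000 CPM. Sites per gene had a Spearman correlation of 0.6506 with exonic bases over 9783 genes, and of 0.2885 with CPM over 9845 genes. At 100 CPM or more the correlation with CPM was −0.2762, over 1032 genes. Reads per site had one of 0.679 with CPM over 9845 genes. These are descriptions across genes, which share libraries and are not independent replicates. *Lsp2*, which encodes a larval serum protein stored for metamorphosis, had a median of 74291 CPM in control fat body but only 3 sites here, with 286, 407 and 325 summed reads in 4EHP-ADAR, against 225, 203 and 134 in 4EHP W114A-ADAR. Coverage in this table is thus a sum over selected positions and not a transcript level.

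The G share was tested in 5120 genes with at least 10 G reads over the 6 libraries and a site of 20 reads in all of them. At an adjusted p under 0.05 in a quasi-binomial fit with limma-moderated dispersion, 3082 genes (60.2%) were higher in 4EHP-ADAR and 0 genes (0%) lower, and 3495 genes had an unadjusted p under 0.05. Every site entered the table with a G read in 4EHP-ADAR, most often a single one, so the direction and part of these p-values were fixed by how sites were listed, and the counts and adjusted p-values of G shares given here describe the table and are not independent evidence of a difference in editing. Of the genes called, 3012 had library shares that did not overlap between the constructs. The calls were lost altogether when 4EHP-ADAR library 2 or library 3 was left out (0 genes each). In these quasi-binomial fits 3027 and 2734 genes had an unadjusted p under 0.05. Between 1334 and 1513 genes were called when any of the other 4 libraries was left out. The shares of 3521 tested genes did not overlap in the higher direction and those of 8 genes in the lower direction, namely *boca*, *Lrr47*, *CG18128*, *CG17030*, *CG4477*, *CG6693*, *whd* and *CR44401*. These 8 were named after their values were seen.

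The differences behind the calls were mostly small. The median difference among the 3082 genes was 0.519 percentage points, 2284 genes differed by less than 1 point, and 28 differed by at least 10 points. For 2113 of them (68.6%) no site reached 5% in 4EHP-ADAR, and 1606 (52.1%) had no G read in 4EHP W114A-ADAR. A single site held at least 50% of the 4EHP-ADAR G reads in 526 of them (17.1%), and 387 had 2 or more sites of at least 5%. In 136 the 4EHP W114A-ADAR mean was itself at least 5%.

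**Figure D2:**
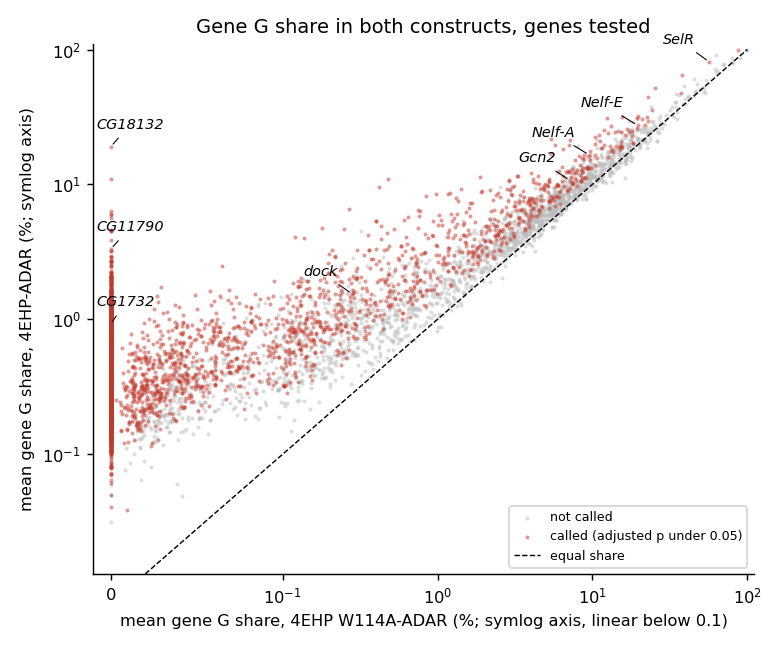
Mean gene-level G share in percent in 4EHP-ADAR (vertical axis) against 4EHP W114A-ADAR (horizontal axis); both axes are logarithmic but linear near 0, each point is a tested gene, red where called, and the dashed line marks equal shares. The 3082 called genes all lie above that line, and most of them differ by under 1 percentage point.

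*CG18132*, a gene on 2L (dm6, 1516795 to 1517478, minus strand), stood out among the genes with the largest differences because it had no G read in the mutant. Its G reads numbered 103, 248 and 184 in the 4EHP-ADAR libraries, against 0, 0 and 0 in the 4EHP W114A-ADAR libraries. The coverage behind them was 498, 1344 and 1029 reads in 4EHP-ADAR, against 335, 210 and 265 in 4EHP W114A-ADAR. The share was 19% ± 1.48 in 4EHP-ADAR and 0% in 4EHP W114A-ADAR (SD, n = 3 each; quasi-binomial fit, adjusted p = 0.00196), and a count of 0 allows a share of up to 0.37% over the pooled 4EHP W114A-ADAR libraries. Nearly all of it, 99.3%, came from 1 coding position, 1516943, where G made up 102 of 188, 248 of 453 and 181 of 376 reads in 4EHP-ADAR, against 0 of 104, 0 of 74 and 0 of 93 in 4EHP W114A-ADAR. Pooled over the libraries, 52.21% of reads were G with 4EHP-ADAR and none with the mutant. The coverage of *CG18132* did not overlap between the constructs either, with a log2 difference of 1.15 ± 0.336 (SE; limma, adjusted p = 0.238).

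*Nelf-E* encodes the RNA-binding subunit of the negative elongation factor (NELF), a complex that holds RNA polymerase II shortly after it has started. It lies on 3L (dm6, 8599442 to 8600879, minus strand). Its G reads numbered 311, 564 and 443 of 1205, 1955 and 1606 in the 4EHP-ADAR libraries, against 210, 187 and 214 of 1032, 952 and 1141 in the 4EHP W114A-ADAR libraries. The share was 27.4% ± 1.53 in 4EHP-ADAR and 19.6% ± 0.798 in 4EHP W114A-ADAR (SD, n = 3 each; quasi-binomial fit, adjusted p = 0.0111), without overlap. A pair of nearby coding positions made up nearly all of the gene's G reads. At 8600392 every read was G in 4EHP-ADAR (157, 287 and 219), against 108 of 169, 96 of 143 and 105 of 186 in 4EHP W114A-ADAR. At 8600422 the counts were 151 of 152, 276 of 276 and 220 of 220 in 4EHP-ADAR, against 102 of 164, 91 of 147 and 109 of 180 in 4EHP W114A-ADAR. The position was thus almost fully G with 4EHP-ADAR and 61.51% G, pooled over libraries, with the mutant. The coverage of *Nelf-E* overlapped between the constructs, with a log2 difference of −0.00057 ± 0.191 (SE; limma, adjusted p = 0.999).

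A second subunit of the complex showed a like pattern at lower depth. *Nelf-A* had 90, 71 and 70 G reads in the 4EHP-ADAR libraries, against 33, 32 and 29 in the 4EHP W114A-ADAR libraries. The shares were 16.5% ± 1.34 and 9.59% ± 0.268 (SD, n = 3 each; quasi-binomial fit, adjusted p = 0.0144). Its 2 leading coding positions, at 21227763 and 21225991 on 3R, had pooled shares of 96.3% and 83% in 4EHP-ADAR, against 58.3% and 58.3% in 4EHP W114A-ADAR. Of the list of 9 NELF and pausing factors, all 9 were in the table, 7 were tested for G share and 6 were higher in 4EHP-ADAR, beside 60.2% of all tested genes. *Spt5*, the elongation factor that NELF works with, had 14, 14 and 16 G reads spread over 30 sites in 4EHP-ADAR, against 1, 0 and 0 in 4EHP W114A-ADAR. *TH1*, which encodes the NELF-C/D subunit, had 9, 6 and 6 G reads in 4EHP-ADAR and 0, 0 and 0 in 4EHP W114A-ADAR. *CycT*, the cyclin of the kinase that releases the paused polymerase, had 111, 79 and 117 in 4EHP-ADAR, against 39, 38 and 44 in 4EHP W114A-ADAR (adjusted p = 0.0245), whereas its kinase *Cdk9* was not past the threshold (adjusted p = 0.341). The G reads of *Spt5* and *TH1* were few and lay at sites listed for a G read in 4EHP-ADAR, so neither editing there nor its absence with the mutant follows from them, whereas *CycT* had G reads with both constructs.

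Genes with the largest differences in G share were often partly G with the mutant as well. *SelR*, which encodes a methionine sulfoxide reductase, had 80.9% ± 9.15 in 4EHP-ADAR and 57% ± 8.26 in 4EHP W114A-ADAR (SD, n = 3 each; quasi-binomial fit, adjusted p = 0.0187). Its leading 3′ UTR position, 10863616 on 3R, was G in 103 of 140, 153 of 164 and 136 of 151 reads in 4EHP-ADAR, against 106 of 164, 65 of 128 and 80 of 121 in 4EHP W114A-ADAR. *CG42590* had 51.5% ± 2.45 in 4EHP-ADAR and 25.4% ± 2.83 in 4EHP W114A-ADAR (adjusted p = 0.00611). Its 3 leading coding positions on 3L were almost wholly G in 4EHP-ADAR, with pooled shares of 100%, 100% and 99.74%, against 57.5%, 49.12% and 51.48% in 4EHP W114A-ADAR. *CycB3*, a mitotic cyclin, had a 5′ UTR position with 196 of 196, 283 of 285 and 235 of 235 G reads in 4EHP-ADAR, against 100 of 169, 62 of 110 and 91 of 138 in 4EHP W114A-ADAR. A share near 100% in one construct beside an intermediate share in the other was thus seen in *Nelf-E*, *CG42590* and *CycB3*.

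Other genes with large differences had lower gene-level shares with both constructs than *SelR* and *CG42590*, although single positions in them could be high. *GstT3*, a glutathione S-transferase, had 21.6% ± 5.61 in 4EHP-ADAR and 5.44% ± 2.91 in 4EHP W114A-ADAR (adjusted p = 0.0134). *CG9743* had 19.5% ± 1.31 in 4EHP-ADAR and 5.75% ± 0.707 in 4EHP W114A-ADAR (adjusted p = 0.0131), with shares above 25% in 4EHP-ADAR at a coding, a 5′ UTR and a 3′ UTR position. *bxd*, a long noncoding RNA of the bithorax complex, had 21.4% ± 2.71 in 4EHP-ADAR and 7.19% ± 5.07 in 4EHP W114A-ADAR (adjusted p = 0.0169) at a pair of intronic positions. *XRCC1*, a scaffold of DNA single-strand break repair, had 25.4% ± 2.81 in 4EHP-ADAR and 11.9% ± 4.63 in 4EHP W114A-ADAR (adjusted p = 0.0138). The coding position 20469118 of *GstT3* on X had pooled shares of 84.58% in 4EHP-ADAR and 19.08% in 4EHP W114A-ADAR. By library they were 94.79%, 96.3% and 65.43%, against 30.63%, 10.19% and 0%. For the coding position 5331706 of *XRCC1* on X the pooled shares were 76.25% and 33.51%. By library they were 75%, 95.89% and 63.89%, against 17.91%, 57.14% and 29.41%. Libraries of the same construct thus differed widely at both positions. Low gene-level shares thus do not mean that each position was low.

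*Kebab* held a site that was partly G with the mutant and others with no G read there. Its share was 18.4% ± 2.98 in 4EHP-ADAR and 6.46% ± 0.484 in 4EHP W114A-ADAR (SD, n = 3 each; quasi-binomial fit, adjusted p = 0.00804). The coding position 2045706 on 2L was G in 131 of 151, 212 of 239 and 184 of 228 reads in 4EHP-ADAR, against 67 of 153, 48 of 92 and 61 of 110 in 4EHP W114A-ADAR. Its next 3 positions, at 2046434, 2045889 and 2045969, had pooled shares of 72.03%, 25.79% and 24.35% in 4EHP-ADAR and 0% each in 4EHP W114A-ADAR. All G reads of the mutant in this gene thus lay at a single position.

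**Figure D3:**
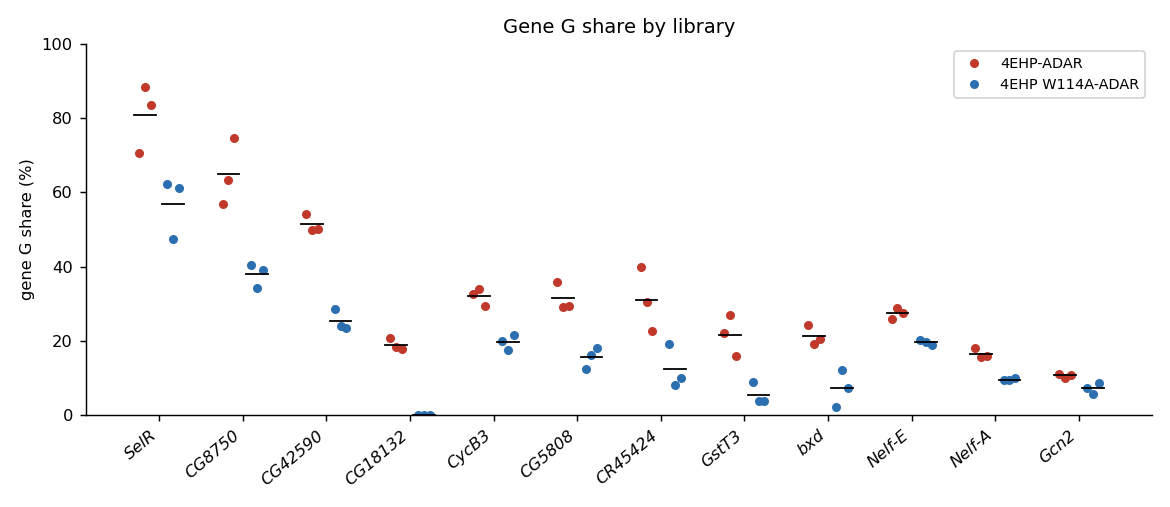
Gene-level G share in percent in each library for genes chosen by the naming rule; each point is a library, red for 4EHP-ADAR and, to its right, blue for 4EHP W114A-ADAR, and the bars are the means of 3 libraries. *CG18132* lies at 17.9% to 20.7% in 4EHP-ADAR and at 0% in 4EHP W114A-ADAR, whereas the 4EHP W114A-ADAR points of *Nelf-E* lie at 18.8% to 20.3%.

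Several further genes had G reads at the same positions in all 4EHP-ADAR libraries and few or none with the mutant, and were chosen after their values were seen. *CG11790* had 67, 40 and 60 G reads in the 4EHP-ADAR libraries, against 0, 0 and 0 in the 4EHP W114A-ADAR libraries, where a count of 0 allows up to 0.0693%. Its 2 leading coding positions on 3R, 25049353 and 25049339, had pooled shares of 36.92% and 35.71% in 4EHP-ADAR and 0% in 4EHP W114A-ADAR. *CG13599* had 32, 35 and 50 G reads in 4EHP-ADAR and 0, 0 and 0 in 4EHP W114A-ADAR, with a limit of 0.321%. In *CG11790* and *CG13599* the G reads thus stood mostly at a pair of coding positions of similar share. *sba* had 44, 27 and 41 G reads in 4EHP-ADAR, against 3, 1 and 1 in 4EHP W114A-ADAR. At 6 of its positions G was found in all 3 4EHP-ADAR libraries and in none of the 4EHP W114A-ADAR libraries. None of these positions had 20 reads in all 6 libraries, which limits what the absence shows. The 4EHP W114A-ADAR libraries held 30, 15 and 21 reads at 23895308 and 17, 8 and 6 at 23899408. *dock*, which encodes an adaptor of receptor signalling with SH2 and SH3 domains, had 73, 60 and 57 G reads in 4EHP-ADAR, against 15, 6 and 7 in 4EHP W114A-ADAR. All 4 genes were past the threshold (quasi-binomial fit, adjusted p = 0.00611, 0.0098, 0.0098 and 0.00611).

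The native genes behind the constructs were examined next. *4EHP* (3R, dm6, 24063077 to 24108960, minus strand) had 19 listed sites, of which 5 also stood under *Syx1A*. Its coverage was 939, 996 and 948 reads in the 4EHP-ADAR libraries, against 679, 493 and 548 in the 4EHP W114A-ADAR libraries, and after scaling the groups did not overlap (log2 difference 0.17 ± 0.144, SE; limma, adjusted p = 0.511). The G share was 7.69% ± 0.895 in 4EHP-ADAR and 6.98% ± 1.55 in 4EHP W114A-ADAR (SD, n = 3 each; quasi-binomial fit, adjusted p = 0.462). Most of it, 89.6%, came from a 3′ UTR position, 24063618, with G in all 64, 77 and 58 reads in 4EHP-ADAR, against 39 of 46, 31 of 44 and 48 of 48 in 4EHP W114A-ADAR. Reads of the native gene and of a coding sequence in the transgene cannot be told apart at coding positions. *Adar* had 2 coding sites, with 35, 57 and 50 reads in 4EHP-ADAR and 36, 27 and 30 in 4EHP W114A-ADAR. It stayed below the coverage filter. *w*, the eye-colour gene that such transgenes carry as a marker, had 703, 1202 and 1408 reads in 4EHP-ADAR and 796, 593 and 533 in 4EHP W114A-ADAR (log2 difference 0.16 ± 0.242, SE; limma, adjusted p = 0.722).

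Among genes of the ATF4 pathway, *Gcn2* had a higher gene-level share than *PEK* or *crc*, most of it from a position that was G with both constructs. The eIF2α kinases GCN2 and PERK (encoded by *PEK*) reduce general translation under stress and raise that of ATF4, which *crc* encodes in flies. *Gcn2* had 68, 42 and 55 G reads in 4EHP-ADAR, against 32, 16 and 23 in 4EHP W114A-ADAR, with shares of 10.7% ± 0.518 and 7.18% ± 1.48 (SD, n = 3 each; quasi-binomial fit, adjusted p = 0.0344). A single coding position, 31400541 on 3R, held 90.3% of the 4EHP-ADAR G reads, and there G made up 64 of 64, 37 of 37 and 48 of 48 reads in 4EHP-ADAR, against 32 of 32, 15 of 16 and 23 of 23 in 4EHP W114A-ADAR. At that position nearly every read was G with both constructs, which a difference in the genome would also give, and this was not tested. Its pooled share was 100% in 4EHP-ADAR and 98.59% in 4EHP W114A-ADAR, so the call for *Gcn2* does not show more editing there. A gene-level share sums over sites, so it also moves with the part of a gene's reads that falls on each site. *PEK* had a share of 1.57% ± 0.454 in 4EHP-ADAR and 1.13% ± 0.345 in 4EHP W114A-ADAR (adjusted p = 0.213), and the libraries overlapped. *crc* had 1, 2 and 5 G reads in 4EHP-ADAR and 1, 0 and 0 in 4EHP W114A-ADAR, too few for the test. Of the 18 listed genes of the 20 in the pathway list, 12 were tested for G share and 5 were higher in 4EHP-ADAR, beside 60.2% of all tested genes. *Gnmt*, an enzyme of one-carbon metabolism, was among them, with 106, 30 and 102 G reads in 4EHP-ADAR and 10, 4 and 0 in 4EHP W114A-ADAR (adjusted p = 0.0346).

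Among the cap-binding family and its partners, 21 of 22 genes were in the table, 14 were tested for G share and 10 were higher in 4EHP-ADAR, beside 60.2% of all tested genes. *eIF4G2*, a relative of the eIF4G scaffold, had 22, 15 and 18 G reads in 4EHP-ADAR and 0, 0 and 0 in 4EHP W114A-ADAR. *cup*, which encodes an eIF4E-binding repressor of the germ line, had 9, 6 and 9 in 4EHP-ADAR and 0, 0 and 0 in 4EHP W114A-ADAR. *CG11148*, now named *Gyf* and encoding a GYF-domain protein whose mammalian relatives bind 4EHP, had 47, 25 and 87 in 4EHP-ADAR, against 10, 3 and 4 in 4EHP W114A-ADAR. The 4EHP-ADAR G reads of *eIF4G2* and *CG11148* were spread thinly, since the leading site held 5.45% of them in *eIF4G2* and 8.81% in *CG11148*. The sites of *eIF4G2* and *cup* were listed for a G read in 4EHP-ADAR, and their G reads were few. Neither editing in these genes nor its absence with the mutant follows from them. Of the 8 known regulators and targets linked to 4EHP in embryos and germ line, 6 were in the table. For G share 3 were tested and 1 was higher in 4EHP-ADAR, beside 60.2% of all tested genes. *brat*, a partner of 4EHP in repressing *hunchback*, had 18, 17 and 30 G reads in 4EHP-ADAR, against 13, 4 and 2 in 4EHP W114A-ADAR. *cad*, a target of 4EHP in the embryo, had 0, 4 and 7 in 4EHP-ADAR and 0, 0 and 0 in 4EHP W114A-ADAR, with overlap at 0. In this fat body table the leading *brat* site held 18.5% of its 4EHP-ADAR G reads.

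Genes with many sites or high coverage differed by little in G share. The 10 genes with the most sites of at least 20 reads were *br* (92), *poe* (88), *tud* (80), *CG11148* (79), *rudhira* (78), *alpha-Spec* (77), *LanA* (75), *tweek* (72), *Syp* (65) and *Mical* (63). Together with the 10 genes of highest coverage they made 14 genes, none of which passed the coverage test. In G share 9 were past the threshold, beside 60.2% of all tested genes. Over all 14 the differences in G share ran between 0.0984 and 1.05 percentage points. *br*, the Broad transcription factor of the ecdysone response, had 67, 36 and 93 G reads in 4EHP-ADAR, against 33, 1 and 7 in 4EHP W114A-ADAR. *Not1*, the scaffold of the CCR4-NOT deadenylase, had 41, 12 and 42 in 4EHP-ADAR, against 2, 0 and 0 in 4EHP W114A-ADAR. The leading site held 9.69% of the 4EHP-ADAR G reads of *br* and 4.21% of those of *Not1*, so that they were scattered over many positions. In other genes of this set single positions carried much of the share. *Syp*, an RNA-binding protein, had a 3′ UTR position on 3R, 20806256, with 84.8% of its 4EHP-ADAR G reads, where G made up 329 of 418, 211 of 220 and 250 of 262 reads in 4EHP-ADAR, against 231 of 384, 126 of 164 and 166 of 194 in 4EHP W114A-ADAR. *alpha-Spec*, a subunit of the spectrin membrane skeleton, had 4 coding positions of at least 50%, with pooled shares of 98.55%, 98.19%, 97.87% and 77.13% in 4EHP-ADAR, against 88.8%, 72.95%, 92.52% and 65.84% in 4EHP W114A-ADAR. These positions were thus mostly G with both constructs.

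Coverage itself was compared next, after scaling to the libraries' typical gene. Of 9020 genes tested by limma voom, 0 (0%) were higher and 1 (0.0111%) was lower in 4EHP-ADAR at an adjusted p under 0.05, while 1705 genes had an unadjusted p under 0.05. Scaled coverage did not overlap between the constructs in the higher direction for 1036 genes (11.5%) and in the lower direction for 1122 genes (12.4%). 4EHP-ADAR library 1 stood apart from the other libraries of its construct: its log2 profile correlated at 0.966, 0.945 and 0.959 with the 4EHP W114A-ADAR libraries but at 0.92 and 0.936 with 4EHP-ADAR libraries 2 and 3. The first principal component, with 50.3% of the variance, placed it at −16.5, against 35.5 and 29.9 for 4EHP-ADAR libraries 2 and 3 and −19.2, −23.8 and −5.97 for the 4EHP W114A-ADAR libraries. Without it, limma called 1711 genes (19%) higher and 1109 genes (12.3%) lower of 8997, so the counts of calls rest on whether this library is kept.

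**Figure D4:**
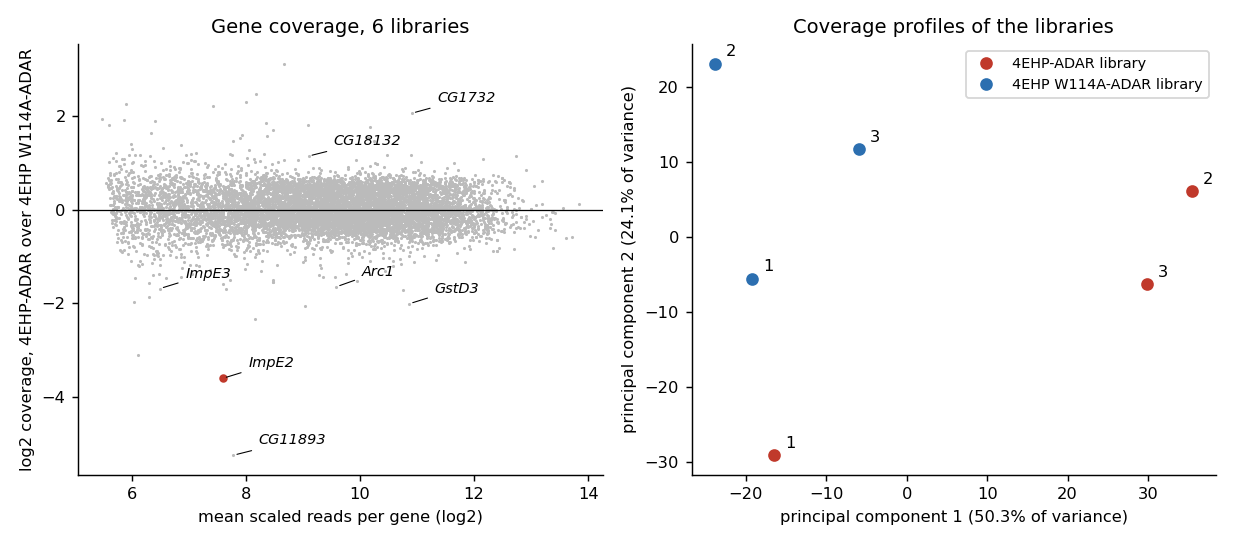
Left, log2 difference in coverage (4EHP-ADAR over 4EHP W114A-ADAR) against mean scaled reads per gene, with each tested gene as a point and the gene past the threshold in red; right, the 6 libraries on the first principal components of coverage, red for 4EHP-ADAR and blue for 4EHP W114A-ADAR. A single gene, *ImpE2*, is past the threshold with all 6 libraries, at a log2 difference of −3.60, and 4EHP-ADAR library 1 lies at −16.5 on the first component, beside the 4EHP W114A-ADAR libraries.

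The called gene was *ImpE2* (3L, dm6, 3510974 to 3512681, minus strand), which is induced by the moulting hormone ecdysone. Its coverage was 32, 37 and 36 reads in the 4EHP-ADAR libraries, against 312, 338 and 223 in the 4EHP W114A-ADAR libraries, so that it fell by 3.60 on the log2 scale (SE 0.263; limma, adjusted p = 0.00551). The groups lay far apart, but the gene had only 2 coding sites, neither with 20 reads in all 6 libraries. The call was lost without 4EHP-ADAR library 3 and without 4EHP W114A-ADAR library 1, where the adjusted p reached 0.0901. At position 3512039, G made up 14 of 17, 11 of 19 and 13 of 23 reads in 4EHP-ADAR, against 3 of 208, 15 of 215 and 61 of 136 in 4EHP W114A-ADAR. The 4EHP W114A-ADAR libraries thus differed widely among themselves at this site.

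Other genes with large differences in coverage were named after their values were seen, and none passed the threshold with all 6 libraries. *CG1732*, now named *Gat* and encoding a GABA transporter, had 5186, 3545 and 2653 reads in 4EHP-ADAR, against 831, 505 and 468 in 4EHP W114A-ADAR (log2 difference 2.06 ± 0.29, SE; limma, adjusted p = 0.194). *GstD3*, a glutathione S-transferase, had 600, 1185 and 910 in 4EHP-ADAR, against 1733, 3288 and 2160 in 4EHP W114A-ADAR (−2.01; adjusted p = 0.203). *ImpE3*, a second ecdysone-inducible gene, had 35, 73 and 52 in 4EHP-ADAR, against 139, 105 and 91 in 4EHP W114A-ADAR (−1.69; adjusted p = 0.203). *CG11893* had 8, 4 and 35 in 4EHP-ADAR, against 356, 571 and 107 in 4EHP W114A-ADAR (−5.25; adjusted p = 0.203). The coverage of *CG11893* comes from 1 listed site, and neither *CG11893* nor *ImpE3* had a site with 20 reads in all 6 libraries. In these 4 genes the raw reads did not overlap between the constructs. All 4 were called without 4EHP-ADAR library 1 (limma, adjusted p = 0.0183 for *CG11893* and 0.0176 for each of the others). In that fit 19% of all tested genes were called higher and 12.3% lower. The 4 genes were chosen for their coverage differences, so neither point is independent evidence for them. *Atg7*, which encodes the E1-like enzyme of autophagy, had 3922, 4741 and 4706 reads in 4EHP-ADAR, against 6536, 5159 and 4817 in 4EHP W114A-ADAR (−0.89; adjusted p = 0.203). *CG1732* also had 53, 24 and 28 G reads in 4EHP-ADAR and 0, 0 and 0 in 4EHP W114A-ADAR (quasi-binomial fit, adjusted p = 0.0133).

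Few members of the gene lists passed the coverage test. Across all tested genes, 49.8% had a positive log2 difference. Of the 20 ecdysone-response genes, 17 were in the table and 16 were tested: 1 (*ImpE2*) was called lower, 5 did not overlap in the lower direction, beside 12.4% of all tested genes, 0 did so in the higher direction, and the median was −0.25 on the log2 scale. Without 4EHP-ADAR library 1 that median was −0.48, and 4 were called lower, beside 12.3% of all tested genes. Of the 18 listed genes of the eIF2α and ATF4 pathway, 0 were called, with a median of −0.20. In the lower direction 4 did not overlap, beside 12.4% of all tested genes, and 0 in the higher, beside 11.5%. Without 4EHP-ADAR library 1, 4 were called lower, beside 12.3% of all tested genes. Of the 15 eIF3 subunits, which form the largest initiation factor, all 15 were tested, with 0 called, 2 not overlapping in the higher direction, beside 11.5% of all tested genes, and 3 in the lower, beside 12.4%. Their median was −0.022 with all libraries and −0.15 without 4EHP-ADAR library 1, when 2 were called higher, beside 19% of all tested genes. Only 5 small-subunit and 6 large-subunit ribosomal protein genes had listed sites, and 0 of these 11 were called. Without 4EHP-ADAR library 1, 3 of the large-subunit genes were called lower, beside 12.3% of all tested genes. The 9 NELF and pausing factors had a median of −0.048, with 0 called.

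Marker genes show what the libraries held. Of 24 fat body genes, 22 were in the table and tested, with 0 called and a median of 0.0089 on the log2 scale. Without 4EHP-ADAR library 1 the median was −0.34 and 5 were called lower, beside 12.3% of all tested genes. Their summed scaled reads were 64630, 25736 and 35881 in the 4EHP-ADAR libraries, against 49202, 37809 and 33764 in the 4EHP W114A-ADAR libraries, so that library 1 of 4EHP-ADAR was the highest and library 2 the lowest. Of 28 gut genes 3 were listed, and of 10 neuronal genes 5. The 4 listed salivary glue genes summed to 206, 256 and 14456 scaled reads in the 4EHP-ADAR libraries, against 438, 1290 and 520 in the 4EHP W114A-ADAR libraries. That excess lay in 4EHP-ADAR library 3 alone, where *Sgs5* had 7161 reads, against 56 and 139 in the other 4EHP-ADAR libraries. Of 16 muscle genes 12 were listed and 9 tested, with 0 called and a median of 0.10 on the log2 scale. A positive log2 difference was seen in 5 of them and a negative one in 4. Their summed scaled reads were 12507, 7698 and 8948 in the 4EHP-ADAR libraries, against 10194, 7390 and 8046 in the 4EHP W114A-ADAR libraries, with overlap. Within this list *Mlc2*, a muscle myosin light chain, had 1733, 107 and 325 reads in the 4EHP-ADAR libraries, against 81, 70 and 86 in the 4EHP W114A-ADAR libraries. Reads of the glue genes and of *Mlc2* thus varied between single libraries. The part of neighbouring tissues in the differences above was not tested. In bulk tissue, fewer cells of a type and less RNA per cell cannot be told apart.

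Testis genes lay to one side. Of 17 genes of the testis list 11 were in the table and tested, and all 11 had a positive log2 difference, with a median of 0.28 beside −0.0011 over all tested genes. None of them passed the threshold (limma, all 6 libraries), 3 did not overlap in the higher direction, beside 11.5% of all tested genes, and 4 were called higher without 4EHP-ADAR library 1, beside 19% of all tested genes, with a median of 0.49. Their summed scaled reads were 12938, 17346 and 16832 in the 4EHP-ADAR libraries, against 12430, 9695 and 12852 in the 4EHP W114A-ADAR libraries, which do not overlap but nearly touch. The antimicrobial peptide genes, 11 of 17 of which were listed, summed to 10553, 13713 and 4324 in 4EHP-ADAR, against 5990, 6812 and 15352 in 4EHP W114A-ADAR, with wide overlap.

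**Figure D5:**
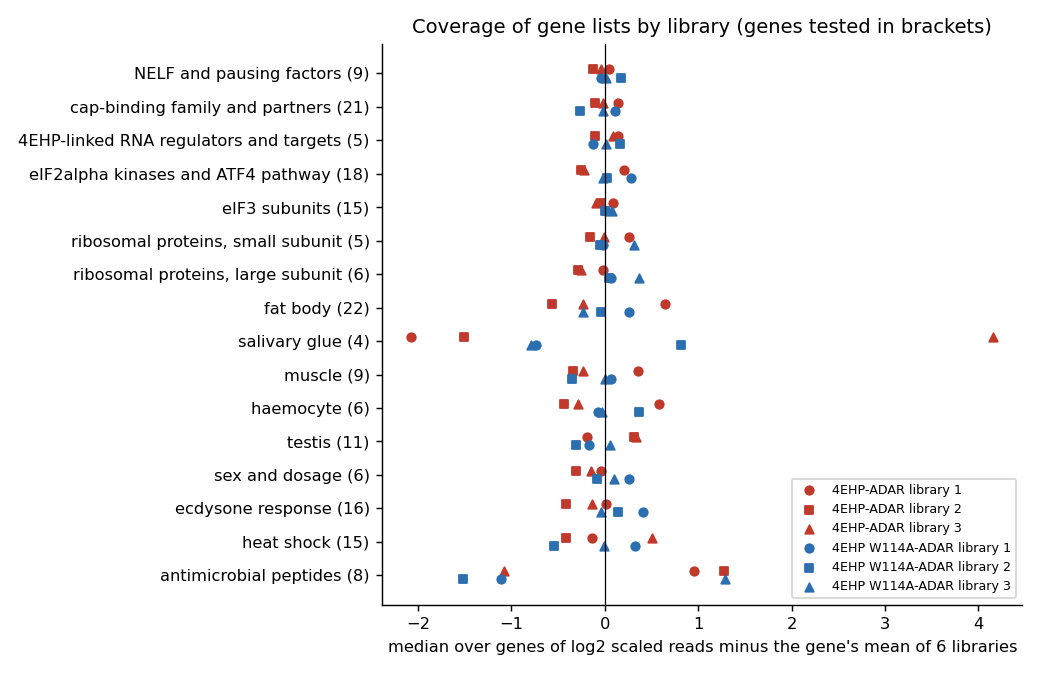
Coverage of each gene list in each library, as the median over its tested genes of the log2 scaled reads minus the gene's mean over the 6 libraries; red marks 4EHP-ADAR and blue 4EHP W114A-ADAR, with the libraries by symbol and the number of genes in brackets. The salivary glue genes are high in 4EHP-ADAR library 3 alone, and the fat body genes are highest in 4EHP-ADAR library 1.

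Length and chromosome went with the measures. Over 8851 genes the log2 difference in coverage and the exonic bases had a Spearman correlation of −0.173, and of −0.344 without 4EHP-ADAR library 1. With genes split by exonic length into 3 bins, the shortest bin had a median log2 difference of 0.13 and the longest one of −0.07, and without that library the medians were 0.26 and −0.21. The testis list was not compared with genes of its own length. A site of at least 5% was present in 25.1% of the genes on the X chromosome, 29.9% on 2L, 32.1% on 2R, 35.6% on 3L, 29.9% on 3R and 37.1% of the 62 genes on chromosome 4. The summed G share on X was 0.942%, 0.93% and 1.14% in the 4EHP-ADAR libraries, against 0.444%, 0.464% and 0.469% in the 4EHP W114A-ADAR libraries. On 3L it was 2.07%, 2.17% and 2.33% in the 4EHP-ADAR libraries, against 1.42%, 1.4% and 1.42% in the 4EHP W114A-ADAR libraries. On chromosome 4 it was 0.665%, 0.657% and 0.905% in the 4EHP-ADAR libraries, against 0.349%, 0.337% and 0.398% in the 4EHP W114A-ADAR libraries. On all 3 chromosome arms named the constructs did not overlap, and these values are descriptions with no test.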

How the data were processed

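PolyA RNA of 6 fat body samples was sequenced. Per the study's methods, the authors trimmed reads with FLEXBAR, mapped them with HISAT2 and listed editing sites with a TRIBE workflow; the genome build is dm6 in the submitters' processing notes. The deposited TRIBE table gives, per site and library, reads with A, C, G and T (other values, read counts held as text), and a Score per site, the authors' log-likelihood ratio between the constructs, which was not used. The authors also deposited CPM values per gene (read counts scaled to the library total) for control fat body, used only to place genes by level, as the median of the 3 control samples. There were 0 unmapped per-sample columns.

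Sites were counted once per gene. Positions were moved by 1 base to count from 1, because codon position of coding sites then no longer differed between strands. Gene parts come from the BDGP6.54 annotation, which held 98.21% of the gene IDs. C and T reads were 0. Coverage was tested by limma 3.58.1 voom in R 4.3.3 on genes with a mean of at least 50 reads, with median-of-ratios scaling. The G share was tested by a quasi-binomial fit with limma squeezeVar and a dispersion floor of 1. Both used Benjamini-Hochberg adjustment over all genes tested. Library values used a two-sided exact permutation test in scipy 1.17.1. Tables were handled with pandas 2.3.3. The fits were tested on simulated data. Library totals lay between 7127061 and 12317197 reads. PCR duplicates cannot be told apart from separate molecules, so counting intervals cover counting error only. A zero limit is 3 counts of the total.

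The members, lists and tests were chosen with earlier results of these data known. Named were the genes of the transgene and those the study names for TRIBE; the 10 largest changes in each direction of coverage and the 10 largest differences in G share among called genes whose groups do not overlap; called genes with 2 or more sites of 20 reads, up to 15; the 10 genes with the most sites and the 10 with the highest coverage; and up to 4 called members of each list with its defining members. From these the text prints the genes that carry each point. Alternatives were site minimums of 10, 20 and 50 reads, other scalings and logits, sites of 95% or more left out, the deepest site alone, each library left out and a replicate block.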

Additional observations from a re-analysis of the deposited data

How the results depend on the processing

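The G share was called higher in 3082 genes, and this count stayed between 2505 and 3344 under other site minimums, logits or without sites of 95% or more. With only sites of at least 20 reads it was 2679 of 4371, and 1 gene was then lower. Leaving out each library in turn gave 0 to 1513 such genes, and the smallest adjusted p was then 0.05 without 4EHP-ADAR library 2 and 0.064 without library 3. Genes higher in coverage numbered 0 to 1711 and genes lower 0 to 1109 when each library was left out. With only sites of at least 20 reads, 0 genes were lower in coverage. A replicate block, added after seeing the data, on the numbers in the column names, whose residual correlations were 0.24, −0.0083 and 0.12 so that the numbers do not pair the libraries, gave 1 gene higher and 2 genes lower in coverage and 0 genes in G share. The library difference of 0.596 points became 0.49 with sites of at least 20 reads and 1.3 as an unweighted mean over genes. The log2 coverage differences of 3 genes near 0 reversed under some settings: leaving out each library gave −0.128 to 0.14 for *Nelf-E*, −0.128 to 0.232 for *Gcn2* and −0.0234 to 0.407 for *w*, the deepest site alone gave 0.174 for *Nelf-E* and −0.477 for *Gcn2*, and sites of at least 20 reads gave −0.151 for *Gcn2*. The G share differences of *Tequila* (−0.124 to 0.299 points) and *Syp* (−0.0752 to 0.204 points) reversed without 4EHP W114A-ADAR library 1. The causes were not tested. Of the named genes' other G share values 380 kept their side of the threshold, 7 gained the call and 160 lost it. For coverage 154 kept it, 9 gained it and 2 lost it. A single G read stood behind 65.21% of the sites, which limits what low shares can show at this depth.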

Other observations

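Counted levels and listed editing sites parted for some genes. Of 7193 genes under 1 CPM in control fat body, 608 had a listed site, with a median of 54 reads per site. That median was above the 21.8 of genes at 1 to 5 CPM, and the cause was not tested. *cup* is listed at 0 CPM in the control fat bodies, yet its sites held 5526, 5982 and 6914 reads in 4EHP-ADAR, against 3496, 2324 and 3089 in 4EHP W114A-ADAR. At the other end, 21 of 28 genes above 2000 CPM had a listed site, with a median of 2 sites. *Thor*, a translational repressor that binds eIF4E, had 1228 CPM and 7 sites, with 2473, 2118 and 1772 reads in 4EHP-ADAR and 1639, 410 and 843 in 4EHP W114A-ADAR (log2 difference 0.74 ± 0.38, SE; limma, adjusted p = 0.308). Its G reads numbered 1, 6 and 2 in 4EHP-ADAR and 0, 0 and 0 in 4EHP W114A-ADAR, too few for the test.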
